A study of Mus musculus with 6 samples.

Results

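Polycomb complexes are the machinery by which a cell keeps genes shut that it does not use, and 10 of their genes were followed through mouse muscle satellite cells: Ezh1, Ezh2, Eed, Suz12 and Jarid2 of Polycomb repressive complex 2 (PRC2), and Ring1, Rnf2, Bmi1, Cbx2 and Phc1 of Polycomb repressive complex 1 (PRC1). They were taken by symbol, and all 10 were found among the 24067 genes listed in both deposited expression tables. Satellite cells are the resident stem cells of skeletal muscle. Polyadenylated RNA had been read by sequencing in satellite cells taken straight from muscle (FISC, freshly isolated) and in cells activated by 36 h of culture in growth medium with serum (ASC). In each state there was 1 wild-type (WT) library and 1 library labelled as a Yy1 knockout (iKO), and both ASC libraries come from cultured cells. YY1-bound chromatin and an input were also sequenced from ASC, 1 library each, whose labels name the C57 background. The sources used here give neither the driver of the knockout, nor the age and sex of the mice, nor the number of animals behind a library. With 1 library per group no value below has a replicate error, a p-value or a test, and every difference describes these libraries.

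PRC2 places methyl groups on lysine 27 of histone H3. EZH1 and EZH2 are its alternative catalytic subunits, EED and SUZ12 hold the core together, and JARID2 is an accessory subunit that helps to bring the complex to chromatin. PRC1 attaches ubiquitin to histone H2A through RING1 or RNF2, its E3 ligase subunits, each paired with a PCGF protein such as BMI1. In canonical PRC1 a CBX protein such as CBX2 reads the mark left by PRC2, and a PHC protein such as PHC1 lets complexes join to each other. YY1 is a zinc finger transcription factor related to Pleiohomeotic, the fly protein that recruits Polycomb complexes to DNA, and it has been linked to EZH2 at muscle genes in myoblasts. In proliferating tissues EZH2 is known to be the prevailing catalytic subunit, while EZH1 is known to persist in resting and differentiated cells.

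The targeted gene was lower in both iKO libraries. Yy1 stood at 51.0 FPKM (fragments counted per length of transcript and per depth of the library) in FISC WT and 20.1 FPKM in FISC iKO. In ASC it stood at 55.2 FPKM in WT and 2.03 FPKM in iKO, so the contrast between genotypes was much deeper in the activated pair. The satellite cell markers Pax7, Myf5, Myod1, Vcam1, Itga7, Cdh15, Calcr and Sdc4 were all at 1 FPKM or more in FISC WT, FISC iKO and ASC WT, and in ASC iKO 7 of the 8 were. Markers of other cells were lower in both ASC libraries than in both FISC libraries in 6 of 8 lists, all but the immune and the tenocyte list. The summed FPKM of 6 fibroblast markers was 346 and 330 in FISC WT and iKO, and 40.52 and 19.05 in ASC WT and iKO. That of 4 erythroid markers was 214 and 286 in FISC, with all 4 at 0 in ASC WT. That of 7 immune markers was 14.1, 12.4, 4.18 and 15.5 FPKM in the same order. In ASC iKO Cd14 stood at 9.75 and Cd68 at 5.16 FPKM, while Cd74 and C1qa were at 0 in both ASC libraries. The pan-leukocyte gene Ptprc was at 0.0695 and 0.116 FPKM in FISC WT and iKO and at 0 in both ASC libraries. Of the tenocyte markers only Scx was higher in ASC than in FISC (18.5 and 2.71 FPKM in WT), and Tnmd and Mkx were lower. In bulk RNA fewer cells of a type and less RNA per cell cannot be told apart, and the part of other cells in the results below was not tested.

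Binding of YY1 at the 10 genes was read from the deposited list of 2031 peaks from ASC, on the build mm9. Only Jarid2 had a peak whose summit lay in the gene's listed locus or within 2 kb of it. Among 10846 genes with at least 1 FPKM in ASC WT, 10.02% had such a peak. The Jarid2 peak (chr13:44923362-44923454) lay 97.3 kb downstream of the gene's start, inside the 191 kb locus, with the authors' fold enrichment of 3.62, −log10 p of 4.08 and −log10 q of 0.00. It was among the weakest of the list, in which 326 peaks had a −log10 p no higher and the median was 4.84. Rnf2 had a peak 5.71 kb upstream of its start (chr1:153353626-153353724), with the authors' fold of 3.94, −log10 p of 4.56 and −log10 q of 0.10. The strongest peak near any of these genes lay 6.99 kb upstream of the start of Ring1 (chr17:34168539-34168840), with the authors' fold of 16.7 and −log10 p of 37.0, which made it number 11 of the list. Its summit fell within 2 kb of the loci of Rxrb, a retinoid receptor gene, and Slc39a7, a zinc transporter gene, and not of Ring1 itself. The other 7 genes were over 100 kb from the nearest peak, at 149 kb for Eed, 170 kb for Ezh1, 218 kb for Ezh2, 359 kb for Cbx2, 395 kb for Suz12, 1506 kb for Phc1 and 1802 kb for Bmi1. Counting peaks within 10 kb of the locus gave 3 of 10 genes against 12.8% of all genes, counting only those within 2 kb of either end of the locus gave 0 against 6.33%, and counting peaks with a −log10 p of at least 10 gave 0 against 1.99%.

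The promoters of Bmi1 and Jarid2 are shown because they carry the letters that YY1 is known to favour although neither gene had a peak at its start. Promoter sequences from 250 bases before to 50 bases after a start were available from RefSeq (GRCm38.p6) for 9 of the 10 genes, all but Cbx2, with 2 starts for Jarid2. The motif GCCATNTT, searched on both strands, was present in the promoters of Bmi1 and Jarid2, at 1 of the 2 Jarid2 starts, and in 6.05% of all 32851 promoters. A second spelling of the YY1 motif, CCGCCAT, shares the letters GCCAT with the first and was likewise searched on both strands. It was found on either strand in 4.05% of all promoters. Among the 9 genes it was found only in the promoter of Ring1, on the strand opposite to the gene and after the start. A match describes letters and not a site. The stretches lie on the plus strand of GRCm38.p6, at chr2:18676788-18676881 for Bmi1 and at chr13:44730700-44730793 for Jarid2, and the motif is in capitals, 170 bases before the start in Bmi1 and 14 bases before it in Jarid2.
Bmi1: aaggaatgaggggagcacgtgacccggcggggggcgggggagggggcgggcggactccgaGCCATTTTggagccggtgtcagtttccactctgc
Jarid2: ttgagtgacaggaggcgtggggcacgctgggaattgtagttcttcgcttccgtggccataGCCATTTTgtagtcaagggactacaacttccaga

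All 10 genes were expressed in at least 1 state, and their order differed between the states. In FISC WT the levels ran from 35.5 FPKM for Rnf2 and 29.5 FPKM for Suz12 down to 8.02 FPKM for Jarid2 and 0.521 FPKM for Cbx2. Ezh1, Ring1, Bmi1, Ezh2, Eed and Phc1 lay between 12.9 and 18.8 FPKM there. The order in FISC iKO differed from it only in places 5 to 7, among Bmi1, Ezh2 and Eed. In ASC WT the leading genes were Eed at 51.3 FPKM, Ezh2 at 41.1 FPKM, Suz12 at 40.3 FPKM and Bmi1 at 37.3 FPKM, and the lowest were Cbx2 at 4.68 FPKM and Jarid2 at 2.87 FPKM. Rnf2, at rank 1 of the 10 in both FISC libraries, was at rank 5 in both ASC libraries, and Eed, at ranks 7 and 6 in FISC, was at rank 1 in both.

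**Figure D1:**
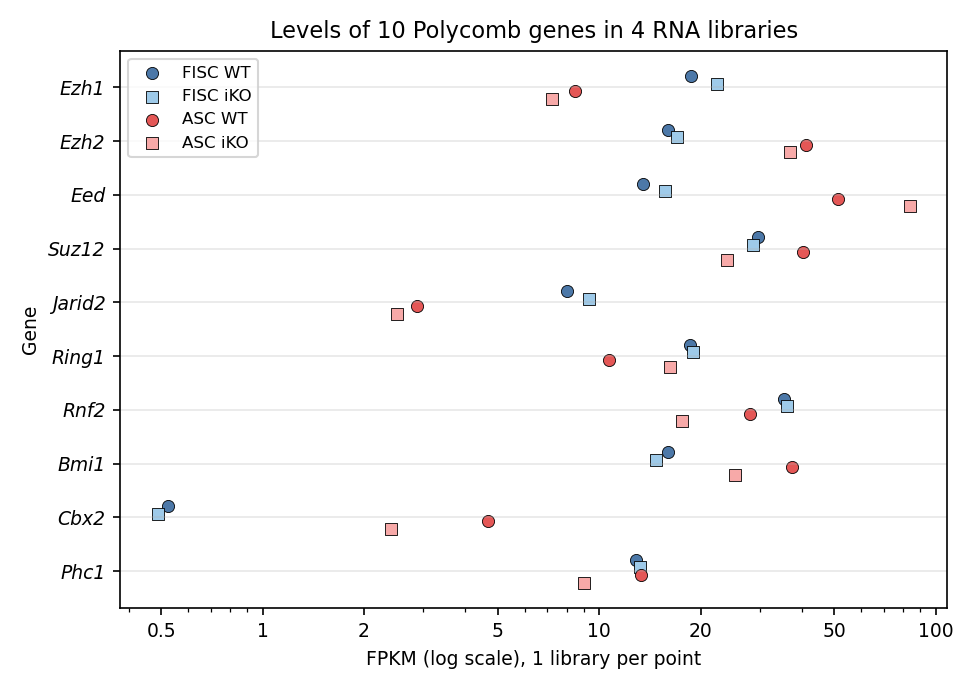
Level of each of the 10 Polycomb genes (rows) in FPKM on a log axis, with 1 point per RNA library: circles for WT, squares for iKO, blue for FISC and red for ASC. The ASC points of Ezh2, Eed, Bmi1 and Cbx2 lie to the right of both FISC points. Those of Ezh1, Jarid2, Ring1 and Rnf2 lie to the left, and the FISC points of each gene lie close together.

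The catalytic subunits of PRC2 changed places between the states. Ezh1 stood at 18.8 FPKM in FISC WT, 22.4 in FISC iKO, 8.49 in ASC WT and 7.23 in ASC iKO. Ezh2 stood at 16.0, 17.0, 41.1 and 36.8 FPKM in the same order. Ezh1 was thus the higher of the pair in both fresh libraries and Ezh2 in both cultured ones. The Ezh2 level was 0.852 times that of Ezh1 in FISC WT and 0.760 times in FISC iKO, against 4.84 and 5.09 times in ASC WT and iKO. This ratio is formed within a library from values per length, so no scaling between libraries enters it. Ezh1 made up 54.0% and 56.8% of the summed Ezh1 and Ezh2 level in FISC and 17.1% and 16.4% in ASC. The sum of the pair varied less, from 34.8 and 39.5 FPKM in FISC to 49.6 and 44.0 FPKM in ASC.

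The core subunits Eed and Suz12 parted in the activated iKO library. Eed, which binds the methylated histone, stood at 13.5 FPKM in FISC WT, 15.6 in FISC iKO, 51.3 in ASC WT and 83.7 in ASC iKO. Suz12, the scaffold of the complex, stood at 29.5, 28.7, 40.3 and 23.9 FPKM. Eed was highest in ASC iKO, the library in which Suz12 was lowest. In ASC WT Eed, Ezh2 and Suz12 lay close to each other, between 40.3 and 51.3 FPKM, and in ASC iKO they spread from 23.9 to 83.7 FPKM. The ratio of Eed to Suz12 was 0.457 and 0.545 in FISC WT and iKO, 1.27 in ASC WT and 3.50 in ASC iKO. Jarid2 stood at 8.02, 9.34, 2.87 and 2.50 FPKM, lower in ASC than in FISC in both genotypes.

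Of the accessory genes around PRC2, the Polycomb-like family showed a further exchange. Phf1, whose protein binds methylated lysine 36 of histone H3, stood at 32.8, 44.1, 8.62 and 16.0 FPKM in FISC WT, FISC iKO, ASC WT and ASC iKO. Mtf2 stood at 9.29, 6.42, 13.5 and 11.3 FPKM. Phf19 stood at 0.423, 0.292, 4.62 and 0.195 FPKM, so that ASC WT was the only library above 1 FPKM. Phf1 made up 77.2% of the family in FISC WT and 32.2% in ASC WT, where Mtf2 led with 50.5%. In ASC iKO Phf1 led again with 58.1%, and Phf19, at 17.3% in ASC WT, made up 0.710%. The listed Phf1 locus is 4.78 kb long and that of Mtf2 43.5 kb, and locus length moved with the genotype ratio in ASC. The log2 ratio of iKO to WT in ASC was 0.82 for Phf1 and −0.24 for Mtf2. Relative to genes of like locus length it was 0.43 and −0.06, and the shares were not adjusted for length.

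The E3 ligase pair of PRC1 differed by genotype in ASC and not visibly in FISC. Ring1 stood at 18.7 FPKM in FISC WT, 18.9 in FISC iKO, 10.7 in ASC WT and 16.2 in ASC iKO. Rnf2 stood at 35.5, 36.0, 28.0 and 17.7 FPKM. The ratio of Rnf2 to Ring1 was 1.90 in both FISC libraries, 2.63 in ASC WT and 1.09 in ASC iKO, where the pair came close to equal levels. Ring1 made up 34.5% and 34.4% of the pair in FISC WT and iKO, 27.6% in ASC WT and 47.9% in ASC iKO. The listed Ring1 locus is 3.89 kb long and that of Rnf2 31.4 kb, and locus length moved with the genotype ratio in ASC, as given with the genotype comparison.

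Bmi1, whose protein also restrains the Cdkn2a locus in stem cells, stood at 16.0, 14.8, 37.3 and 25.3 FPKM in FISC WT, FISC iKO, ASC WT and ASC iKO. Among the 6 PCGF genes it held the largest share in ASC WT, 32.0%, ahead of Pcgf3 with 21.5%. In FISC the leader was Pcgf5, of variant PRC1, with 36.3% in WT and 36.5% in iKO, and Bmi1 followed with 25.7% and 23.9%. In ASC iKO Pcgf6 (25.4%), Bmi1 (25.0%) and Pcgf5 (23.6%) were nearly level, and Pcgf3 made up 7.99%. Pcgf3 itself stood at 7.32, 7.85, 25.0 and 8.08 FPKM, high in ASC WT alone. Pcgf1 made up at most 9.76% and Pcgf2 at most 11.5% in any library.

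The order of the CBX genes also differed between the states. Cbx2 stood at 0.521, 0.487, 4.68 and 2.40 FPKM, under 1 FPKM in both FISC libraries and above it in both ASC libraries. Cbx7, which is known to prevail in resting and stem cells, stood at 15.8, 27.2, 6.97 and 8.25 FPKM. The level of Cbx7 was 30.4 and 55.9 times that of Cbx2 in FISC WT and iKO, and 1.49 and 3.44 times in ASC. Of the summed level of Cbx2, Cbx6, Cbx7 and Cbx8, Cbx7 made up the largest share in FISC with 58.2% and 70.1%, and Cbx6 in ASC with 49.9% and 50.4%, although Npcd and Nptxr are listed at the locus of Cbx6, so its reads may be shared with them. Cbx8 stood at 2.22, 2.01, 2.34 and 4.92 FPKM, highest in ASC iKO.

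Phc1 was never the main PHC gene. It stood at 12.9, 13.2, 13.3 and 9.02 FPKM, with ASC iKO the lowest of the 4. Phc2 stood at 52.4, 48.8, 160 and 198 FPKM and made up 72.8% and 71.5% of the family in FISC and 88.3% and 94.6% in ASC. Phc3 stood at 6.70, 6.22, 7.97 and 2.22 FPKM. The share of Phc1 went from 17.9% in FISC WT and 19.4% in FISC iKO to 7.31% in ASC WT and 4.31% in ASC iKO.

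**Figure D2:**
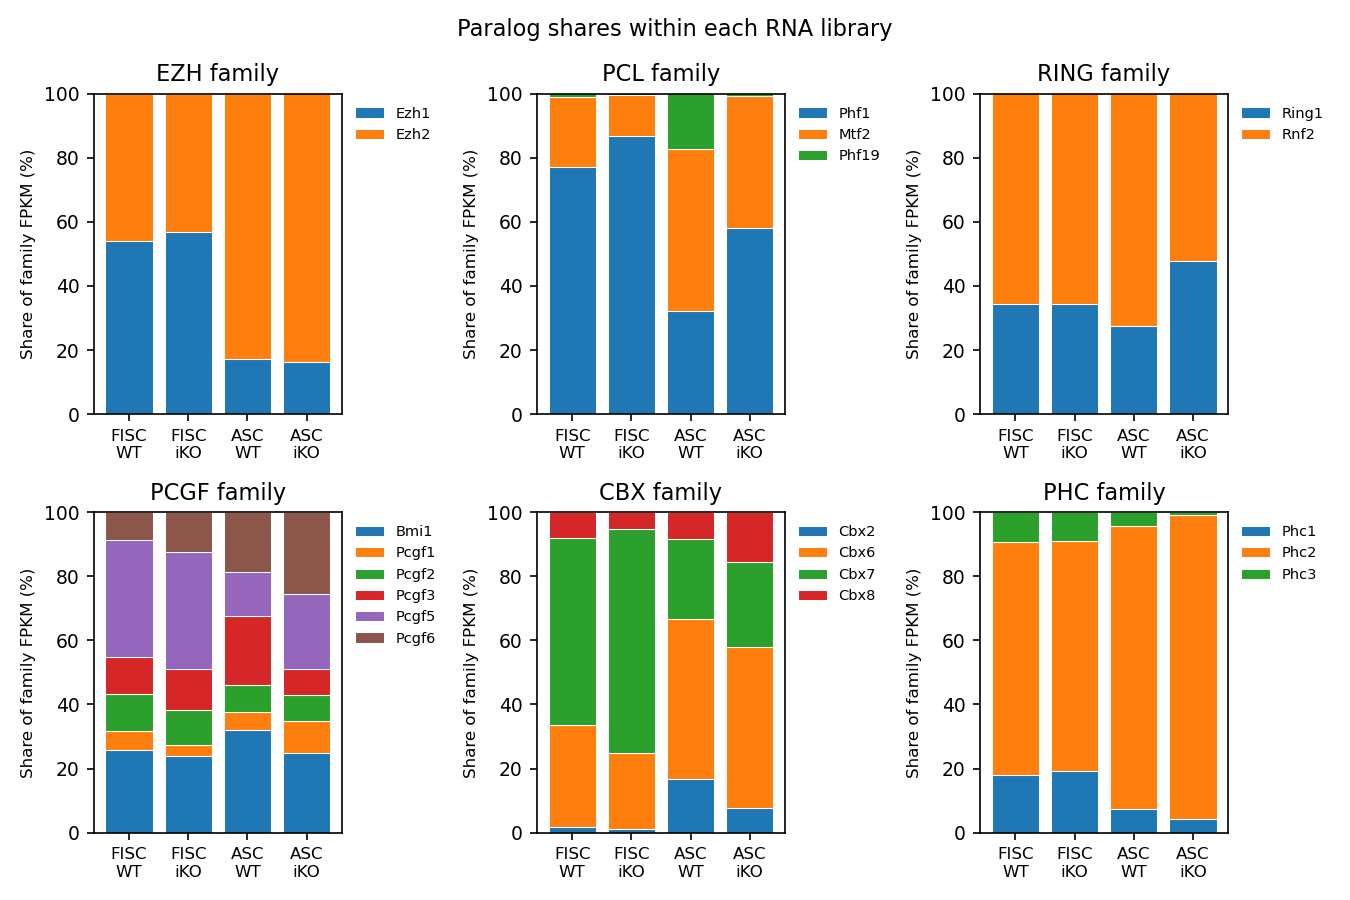
Share of each paralog in the summed FPKM of the genes shown for its family (y axis, percent) in the 4 RNA libraries (x axis), with 1 panel per family and 1 colour per gene. Ezh1 holds 54.0% and 56.8% of its family in FISC and 17.1% and 16.4% in ASC, and the RING panel differs between genotypes only in ASC.

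Activated and freshly isolated cells were then compared as a log2 ratio of FPKM + 1 within a genotype, a difference counting as higher or lower from 2-fold on. The libraries come from separate tables, so these values are description only, and all genes together had a median ratio of 0.40 in WT and 0.38 in iKO. In WT, Cbx2 (1.90), Eed (1.85), Ezh2 (1.31) and Bmi1 (1.17) were at least 2-fold higher in ASC, 4 of 10 genes against 31.03% of 11816 genes. Jarid2 (−1.22) and Ezh1 (−1.06) were at least 2-fold lower, 2 of 10 against 17.2%. Both shares lay near those of all genes. Suz12 had a ratio of 0.43, Phc1 of 0.04, Rnf2 of −0.33 and Ring1 of −0.75. Relative to the median of all genes, Cbx2 (1.498) and Eed (1.45) were above 2-fold, Ezh2 stood at 0.91 and Bmi1 at 0.77, within it, and Jarid2 (−1.63), Ezh1 (−1.46) and Ring1 (−1.16) were below; Phc1 turned to −0.36. Across all genes this centring gave 2349 higher and 2874 lower genes, in place of 3667 and 2027.

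In iKO the ratios were 2.35 for Eed, 1.19 for Cbx2 and 1.07 for Ezh2, 3 of 10 against 33.7% of 11797 genes. Jarid2 (−1.56) and Ezh1 (−1.51) were at least 2-fold lower, 2 of 10 against 20.6%. Bmi1 had a ratio of 0.74 and Rnf2 of −0.99, on either side within 2-fold. Relative to the median of all genes only Eed (1.96) was above 2-fold, with Ezh2 at 0.68, and Jarid2 (−1.95), Ezh1 (−1.90) and Rnf2 (−1.37) were below. Scaling both libraries to the same sum of FPKM turned Ezh2 to −0.11 and Bmi1 to −0.42, with 39.8% of the sum in ASC iKO coming from Mir762 alone. Relative to genes of like locus length Bmi1 also turned, to −0.07. The direction of Eed, Ezh1, Jarid2, Cbx2, Rnf2 and Ring1 was the same under each setting run in both genotypes.

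**Figure D3:**
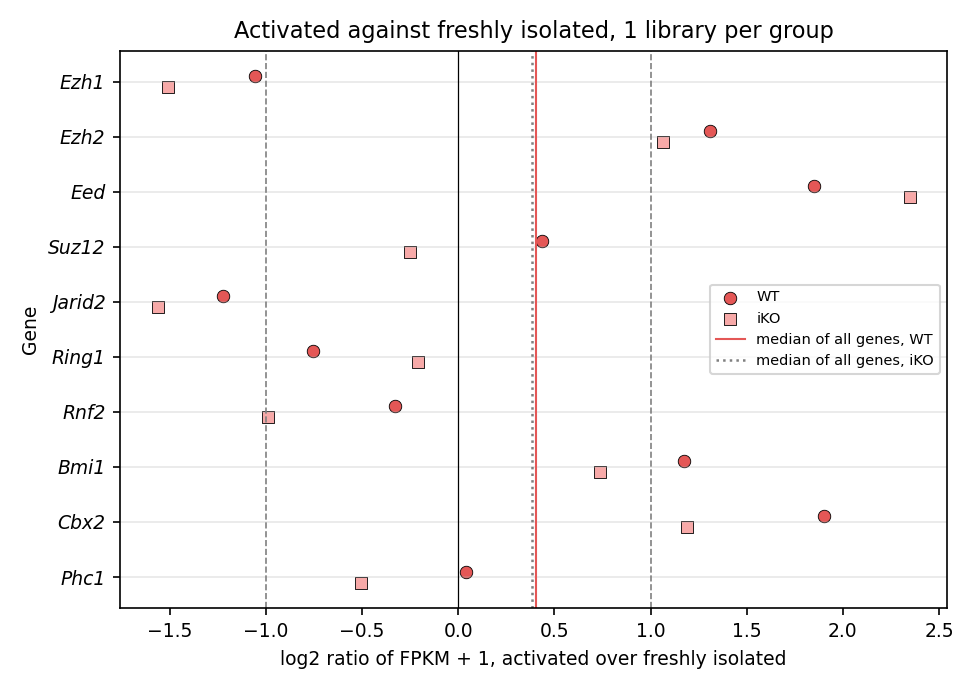
Log2 ratio of FPKM + 1, ASC over FISC (x axis), for the 10 genes (rows), with circles for WT and squares for iKO, 1 library per group. Dashed lines mark 2-fold and the 2 lines near 0.4 the medians of all genes, 0.40 in WT and 0.38 in iKO; Eed lies farthest to the right in iKO at 2.35, and Ezh1 and Jarid2 lie left of −1 in both.

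Proliferation genes also differed between the states, and a link to the exchange of Ezh1 for Ezh2 was not tested. All 12 of Mki67, Top2a, Pcna, Mcm2 to Mcm7, Ccna2, Ccnb1 and Cdk1 were at least 2-fold higher in ASC in both genotypes, beside 31.03% of all genes in WT and 33.7% in iKO, with a median ratio of 4.13 in WT and 3.71 in iKO. Their ratios ran from 1.45 for Pcna, the replication clamp, to 5.45 for Top2a, a topoisomerase of dividing cells, in WT, and the ratio of Ezh2, 1.31, lay below that range. The genes whose levels over the 4 libraries were most like those of Ezh2, by Euclidean distance of centred log2(FPKM + 1) among 9269 genes, were Msh6, Ubtf, Mvk, Kat2a and Zfp322a, at distances of 0.02 to 0.04. Those most like Ezh1 were Zfp654, Psmb8, Sirt1, Pknox1 and Il17rc, at distances of 0.04 to 0.10. With 4 libraries many genes come close to any pattern.

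The other Polycomb genes of the list followed both directions on activation. Of the 39 with a value in WT, 10 (25.6%) were higher by 2-fold or more and 5 (12.8%) lower by as much, beside 31.03% and 17.2% of all genes. Besides Phc2, Pcgf3, Pcgf6 and Phf19, the higher ones included L3mbtl2 (1.56 and 16.7 FPKM in FISC WT and ASC WT), a subunit of variant PRC1, and Asxl2 (1.51 and 9.97 FPKM), a partner of the H2A deubiquitinase BAP1. Besides Phf1 and Cbx7, the lower ones were Auts2 (31.3 and 6.57 FPKM), Rybp (44.6 and 15.7 FPKM), both of variant PRC1, and Kdm6b, an H3K27 demethylase. Kdm6b stood at 191 FPKM in FISC WT and 9.47 in ASC WT, a log2 ratio of −4.20 and the lowest of the list, while the related demethylase Kdm6a stood at 11.7 and 11.0 FPKM. In iKO 8 of 38 (21.1%) were higher by 2-fold or more and 12 (31.6%) lower by as much, beside 33.7% and 20.6% of all genes. Auts2, Rybp, Asxl2 and Kdm6b were named after their values were seen.

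The Yy1 genotypes were compared within each state by the same ratio, iKO over WT. In FISC the 9 genes with at least 1 FPKM in either library had ratios between −0.11 for Bmi1 and 0.25 for Ezh1, with a median of 0.04. None reached 2-fold in either direction, against 0.677% of 11229 genes higher and 0.721% lower, and the median of all genes was −0.0027. Eed (0.20), Jarid2 (0.20) and Ezh2 (0.09) lay above 0, and Phc1 (0.04), Suz12 (−0.04), Rnf2 (0.02) and Ring1 (0.02) lay at it. Ring1 turned to −0.02 relative to genes of like locus length. Cbx2 stood at 0.521 and 0.487 FPKM and was left out as too low.

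In ASC the ratios spread further, and again none of the 10 genes reached 2-fold, against 8.74% of 11215 genes higher and 8.26% lower. Upper-quartile scaling gave 653 higher and 1199 lower genes in all, in place of 980 and 926, and moved the median of all genes by −0.12 without bringing any of the 10 past 2-fold. Cbx2 (−0.74), Suz12 (−0.73), Rnf2 (−0.64), Bmi1 (−0.54), Phc1 (−0.51), Ezh1 (−0.21), Ezh2 (−0.15) and Jarid2 (−0.14) lay below 0. Eed (0.70) and Ring1 (0.56) lay above it. The median of the 10 was −0.36, beside −0.0025 over all genes, and 8 of 10 were below 0, beside 50.2% of all genes. Scaling to the same sum of FPKM put all 10 below 0 and 7 of them at least 2-fold lower, beside 5950 of 11215 genes. Without Mir762 in the sum 5 were at least 2-fold lower, beside 2445 of 11215 genes, and Eed and Ring1 stayed above 0. The median of all genes was −1.05 and −0.49 under these scalings.

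The genotype ratio in ASC moved with the length of the listed locus. Of 10 bins by length, the shortest (median length 2.81 kb) showed a median log2 ratio of 0.67 and the longest (184 kb) of −0.48. Ring1, in the shortest bin, was 0.11 below the median of its own, and Bmi1 and Cbx2, in short loci of 9.61 and 8.24 kb, were 0.80 and 1.13 below theirs, Cbx2 thereby passing 2-fold. Jarid2, in the longest bin, was 0.34 above its median, and Ezh2, in a locus of 64.8 kb, was 0.16 above, so that the direction of Ring1, Jarid2 and Ezh2 turned with this reference. Eed was 0.70 above, and Rnf2, Phc1 and Suz12 were 0.63, 0.57 and 0.55 below their medians. Ezh1, with a ratio of −0.21, was 0.03 below the median of its bin. The part of locus length in these ratios was not tested beyond this subtraction.

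**Figure D4:**
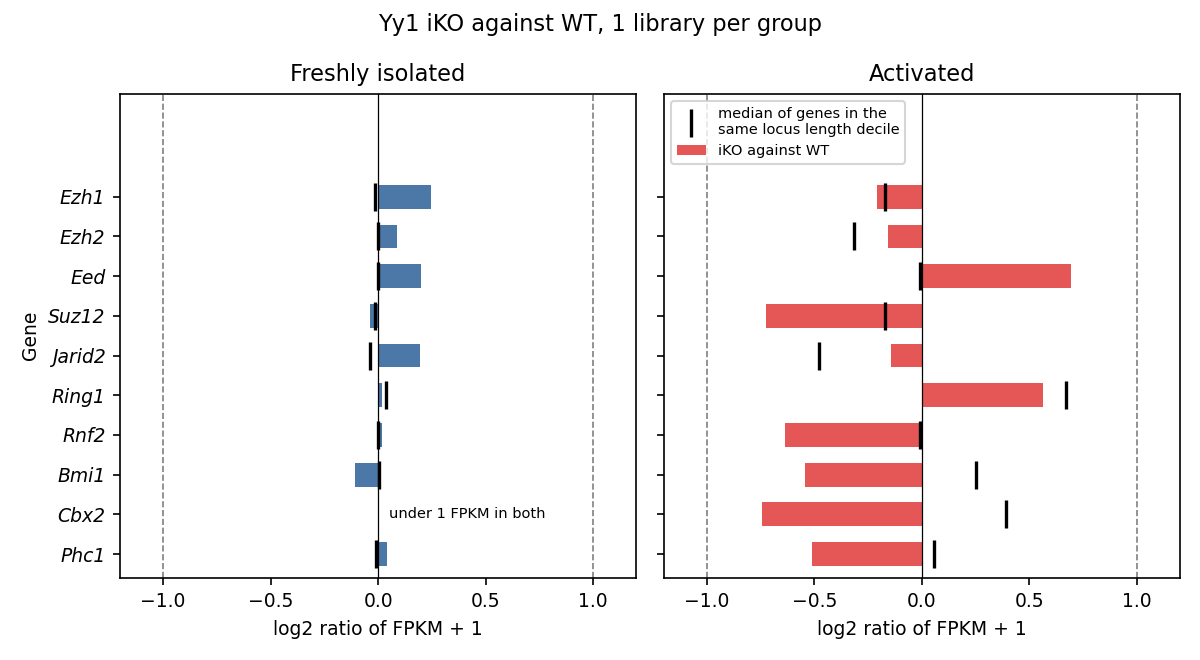
Log2 ratio of FPKM + 1, iKO over WT (x axis), for the 10 genes (rows) in FISC (left) and ASC (right), 1 library per group. Bars give the gene's ratio, black ticks the median of genes in the same bin of locus length, and dashed lines 2-fold; no bar reaches 2-fold, and in ASC 8 of 10 bars point to lower levels in iKO.

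The difference between the states, ASC ratio minus FISC ratio, was −0.69 for Suz12, −0.66 for Rnf2, −0.55 for Phc1, −0.45 for Ezh1, −0.44 for Bmi1, −0.34 for Jarid2 and −0.24 for Ezh2. It was 0.54 for Ring1 and 0.50 for Eed. No gene differed by 2-fold between the states, and the difference was not tested.

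The wider Polycomb list was 42 genes of both complexes and of the enzymes that act against them. In FISC the only one of 38 with a value at 2-fold was Yy1 itself, beside 0.677% of all genes higher and 0.721% lower. Closest to 2-fold higher was E130012A19Rik, an accessory gene of PRC2, at 4.28 FPKM in WT and 9.42 in iKO, a ratio of 0.98. Cbx7 had a ratio of 0.75. In ASC 0 of 39 were at least 2-fold higher, beside 8.74% of all genes. At least 2-fold lower were 6 of 39 (15.4%), the targeted gene Yy1 among them, beside 8.26% of all genes. The median of the 39 was −0.24, beside −0.0025 over all genes, and it was not set against genes of like locus length.

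The 5 others that were lower in ASC iKO were Phf19 of PRC2 (ratio −2.23), L3mbtl2 (−1.61), Pcgf3 (−1.52), Phc3 (−1.48) and the X-linked demethylase gene Kdm6a (−1.12). L3mbtl2 stood at 16.7 FPKM in ASC WT and 4.77 in ASC iKO, but Chadl is listed at an identical locus, so its reads may be shared. Kdm6a stood at 11.0 and 4.52 FPKM, and relative to genes of like locus length its ratio was −0.70, within 2-fold. Relative to the same reference Phf19 (−2.29), L3mbtl2 (−1.61), Pcgf3 (−1.35) and Phc3 (−1.16) remained at least 2-fold lower. Cbx8 (0.83) and Phf1 (0.82), both in short loci, had the highest ratios. None of the 5 had a YY1 peak in or within 2 kb of its locus, beside 10.02% of all genes with at least 1 FPKM in ASC WT. Of the 42 genes only Kdm2b, a DNA-binding subunit of variant PRC1, had one. That peak lay inside the locus, 79.5 kb from the gene's start, at the authors' −log10 p of 4.99 and −log10 q of 0.33.

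**Figure D5:**
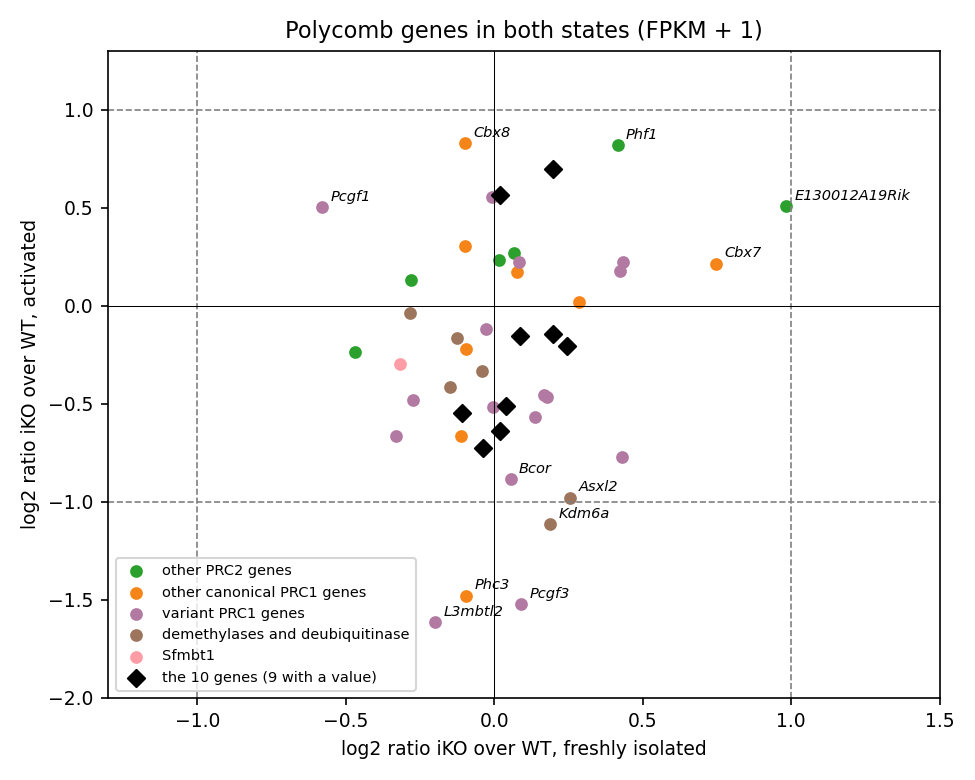
Log2 ratio of FPKM + 1, iKO over WT, in FISC (x axis) against ASC (y axis), 1 point per gene, for the 10 genes (black diamonds, 9 with a FISC value) and the wider Polycomb list by group (circles). Yy1 and genes without a FISC value, such as Phf19, are left out, and dashed lines mark 2-fold; L3mbtl2, Pcgf3, Phc3 and Kdm6a lie below the lower line.

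Genes known to be held down by Polycomb complexes were read beside them. The neighbours Cdkn2a and Cdkn2b, cell cycle inhibitors that are a classic Polycomb target, were both higher in ASC iKO than in ASC WT. Cdkn2a stood at 2.30 FPKM in FISC WT, 1.17 in FISC iKO, 5.58 in ASC WT and 12.4 in ASC iKO. Cdkn2b stood at 3.77, 2.49, 7.12 and 17.6 FPKM. Their ratios were −0.61 and −0.45 in FISC and 1.03 and 1.19 in ASC, so ASC iKO was the highest library for both. In ASC both came within 2-fold with a pseudocount of 5 (0.72 and 0.90), relative to genes of like locus length (0.97 and 0.80) and without Mir762 in the sum (0.51 and 0.66). Upper-quartile scaling gave 0.90 and 1.06, and the same sum of FPKM turned Cdkn2a to −0.12 and left Cdkn2b at 0.00. Pax7, which PRC2 is known to shut in differentiating muscle cells, stood at 61.8, 78.3, 28.3 and 6.19 FPKM, lowest in ASC iKO. The other 5 muscle targets, Myog, Ckm, Myh1, Myh2 and Myh4, were under 1 FPKM in both ASC libraries, and Myog stood at 8.28 and 9.55 FPKM in FISC WT and iKO and was listed at 0 in both ASC libraries. Of all 24312 genes 10846 reached 1 FPKM in ASC WT and 10657 in ASC iKO.

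Developmental regulators that Polycomb complexes keep shut in many tissues stayed near 0. Of 12 measured, 5 were listed at 0 in all 4 libraries: Gata4, Nkx2-2, Olig2, Evx1 and Tbx5. Only Lhx2 reached 1 FPKM, at 0.0567 and 0.225 FPKM in FISC WT and iKO and at 1.93 and 1.87 FPKM in ASC. Over all genes 10892 of 24205 reached 1 FPKM in FISC WT and 10846 of 24312 in ASC WT. The share of all genes at 0 in all 4 libraries was not computed. Proliferation genes differed in the same ASC pair, with 5 of 12 at least 2-fold lower in iKO, beside 8.26% of all genes, and a median of −0.59, beside −0.0025. Ezh2 had a ratio of −0.15 in that pair, and its level was 4.84 and 5.09 times that of Ezh1 in ASC WT and iKO. Top2a stood at 71.1 FPKM in ASC WT and 27.5 in ASC iKO and Mcm5 at 81.0 and 32.5, while Pcna stood at 404 and 462 and Cdk1 at 35.9 and 38.6. The immune markers Cd14 (2.80 and 9.75 FPKM) and Cd68 (1.36 and 5.16 FPKM) were higher in ASC iKO too, with Ptprc, Cd74 and C1qa at 0 in both. Lyz2 stood at 0 and 0.554 FPKM in ASC WT and iKO, and Itgam at 0.0146 and 0.0221 FPKM. Whether proliferation or other cells had a part in the ratios of the Polycomb genes was not tested.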

How the data were processed

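The authors deposited FPKM per gene for the 2 FISC and the 2 ASC libraries in separate tables, per the file headers, and 1 YY1 peak list in the narrowPeak layout with a score, a fold (ratio to the local background), −log10 p and −log10 q per peak. MACS2 2.1.0, Cufflinks 2.2.1, TopHat2 and mm9 appear, without roles, in the submitters' processing notes. Annotation, strand and scaling: not given in the sources used here. Deposited locus starts count from 0 (gene lengths of 7 of the 10 genes then equal those of RefSeq, GRCm38.p6), and 1 was added. Depth is unknown; steps among low values (tolerance 0.002) put ASC iKO at 0.665 and FISC iKO at 1.00 reads per WT read, and no interval was computed.

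Ratios are log2((FPKM + 1)/(FPKM + 1)) on deposited values, for genes with at least 1 FPKM in 1 of the 2 libraries. The pseudocount understates ratios of low genes. A difference is named from 2-fold on, a rule of size. Named were the 10 genes, paralogs, genes of the wider list at 2-fold in an iKO comparison, the extremes of the target and proliferation lists, and genes most like Ezh1 and Ezh2. E130012A19Rik, Kdm2b, Auts2, Rybp, Asxl2, Kdm6b, the neighbours of the Ring1 peak, the marker genes given singly and the other genes of the closing section fall outside this rule and were named after their values were seen. The members and lists were chosen with earlier results of these data known. The calculation (Python 3.11.15, pandas 2.3.3) was tested on simulated data. Alternatives were 2 pseudocounts, 2 filters, 3 scalings, locus length and, added after seeing the data, the sum of FPKM without Mir762. 1 paralog is not reported here and stands in no share.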

Additional observations from a re-analysis of the deposited data

Results flagged for a closer look

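The iKO to WT ratio pointed in opposite directions in FISC and ASC, at least 2-fold apart, for 11 of the genes of the lists read, none of them among the 10. The share of all genes that did so was not computed, so these counts have no background. Over all genes 8.74% were at least 2-fold higher and 8.26% lower in ASC iKO, beside 0.677% and 0.721% in FISC iKO. With 1 library per group the difference was not tested. The ASC log2 ratio minus the FISC log2 ratio was 1.72 for the immune marker Cd14, 1.65 for Cdkn2b, 1.64 for Cdkn2a and 1.08 for Pcgf1. It was −2.37 for Pax7, −1.61 for Pcgf3, −1.305 for Kdm6a, −1.23 for Asxl2 and −1.199 for Bcorl1, a corepressor gene of variant PRC1. For the replication genes Mcm4 and Mcm3 it was −1.27 and −1.02.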

How the results depend on the processing

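The counts of the 10 genes at 2-fold between genotypes were 0 in both states under each setting, apart from those lower in ASC iKO: 7 with the same sum of FPKM, 5 without Mir762 in that sum and 1 relative to the locus length bin. The wider list went from 0 to 1 higher in FISC iKO with a pseudocount of 0.1, upper-quartile scaling and both sums, and from 0 to 1 higher in ASC iKO with a pseudocount of 0.1. It went from 6 of 39 lower in ASC iKO to 3 with a pseudocount of 5, 31 with the same sum and 14 without Mir762. Over all 11215 genes the lower ones went from 926 to 306, 5950 and 2445 under these settings, in the same order.

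For WT activation, the 10 genes went from 4 higher to 2 with upper-quartile scaling, median centring and locus length, and from 2 lower to 0 with a pseudocount of 5, 1 with both sums and 3 with upper-quartile scaling, centring and locus length. The wider list went from 10 higher to 6 with a pseudocount of 5, and from 5 lower to 8 with upper-quartile scaling and locus length and 9 with centring. Over all 11816 genes, 3667 higher and 2027 lower became 2619 and 2526 with upper-quartile scaling and 2349 and 2874 with centring. They became 2300 and 2803 with locus length, 2335 and 1209 with a pseudocount of 5, and 4035 and 1898 with both sums. For iKO activation, the 10 went from 3 higher to 1 with a pseudocount of 5, upper-quartile scaling, centring and both sums, and from 2 lower to 1 with a pseudocount of 5, 6 with the same sum, 4 with locus length and 3 with a pseudocount of 0.1, upper-quartile scaling, centring and the sum without Mir762. The wider list went from 8 of 38 higher to 5 with a pseudocount of 5 and with locus length. It went to 4 with upper-quartile scaling, centring and the sum without Mir762, and to 0 with the same sum. From 12 of 38 lower it went to 19 with the same sum. Over all 11797 genes the same sum gave 1335 higher and 4642 lower genes, in place of 3980 and 2427. Upper-quartile scaling gave 2647 and 3210, centring 2839 and 3250, and the sum without Mir762 gave 2689 and 3185. Locus length gave 2675 and 3027, a pseudocount of 5 gave 2814 and 1384, and one of 0.1 gave 4444 and 2791. The 10 genes had 1 with a YY1 peak, 3 with a window of 10 kb, 0 within 2 kb of a locus end and 0 at −log10 p of at least 10.

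With the same sum of FPKM, which Mir762 weighs on in ASC iKO, ratios in ASC reversed to −1.05 for Rbbp4, −1.02 for Rbbp7, −1.14 for Aebp2, −1.01 for Cbx6, −1.002 for Pcgf6, −1.01 for Yaf2, −1.05 for Wdr5, −0.12 for Cdkn2a, −1.10 for Pcna, −1.21 for Mcm7 and −1.15 for Cdk1. In iKO activation they reversed to −0.11 for Ezh2, −0.17 for Rbbp7, −1.08 for Pcgf5, −1.11 for Yaf2, −0.16 for Wdr5, −1.05 for Bap1 and −0.10 for Mcm4. Without Mir762 in the sum none of these was at 2-fold: 10 of the 11 in ASC still lay below 0, all but Cdkn2a (0.51), and 3 of the 7 in iKO activation did, Pcgf5, Yaf2 and Bap1. Over all genes, FISC counts of 76 higher and 81 lower were 194 and 217 with a pseudocount of 0.1 and 26 and 35 with one of 5; ASC counts of 980 and 926 were 576 and 306 with one of 5 and 631 and 750 with locus length. Paralog shares involve no scaling and no pseudocount, and they were not adjusted for locus length. No paired analysis was possible because each group has 1 library, and leaving out a replicate was not possible for the same reason.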
